A study of Capra hircus with 13 samples.

Results

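Interferon signalling was followed through 8 genes in goat (*Capra hircus*) oocytes and cleavage embryos. They were the receptor chains *IFNAR1* and *IFNAR2*, the transcription factors *STAT2*, *IRF9* and *IRF3*, and the response genes *IFI6*, *ISG15* and *MX1*. The genes were chosen by name for their place in the pathway, and in the knowledge that *IFI6* is listed at 0 in both libraries of *YTHDF2* knockdown embryos. All 8 are among the 27161 gene names of the 5 deposited tables, and a wider list of 104 other pathway genes, of which 83 were listed, was read beside them.

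The study asked how maternal mRNAs are cleared in early goat embryos and what the loss of YTHDF2, a protein that binds N6-methyladenosine in mRNA, does to the transcriptome. RNA-seq (Smart-seq2, polyA RNA) was available for 13 libraries. Of these, 9 were untreated: 3 of MII oocytes (mature oocytes arrested at the second meiotic division), 3 of 4-cell embryos and 3 of 8-cell embryos. The other 4 were of 8-cell embryos from *in vitro* fertilization (IVF) that had been injected as zygotes, 8 h after IVF, with 20 µM siRNA: 2 libraries with a universal negative control siRNA (NC) and 2 with a mixture of 2 siRNAs against *YTHDF2*. Embryos were pooled for each injected library. The NC libraries bear the name WT in their titles, but their treatment label is NC siRNA injection. No breed, animal or age is given, and nothing says which libraries came from separate animals or IVF runs, so the p-values measure the spread between these libraries.

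Type I interferons are secreted antiviral signals that bind a receptor made of IFNAR1 and IFNAR2. The kinases JAK1 and TYK2 on the receptor then phosphorylate STAT proteins, and a complex that holds STAT2 and IRF9 switches on interferon-stimulated genes in the nucleus. IRF3 acts upstream of this loop, where sensors of foreign nucleic acids activate it to induce the interferon genes themselves. In ruminants the trophectoderm of the elongating conceptus secretes a type I interferon, interferon tau, as the signal of pregnancy, and *ISG15*, *MX1* and *IFI6* are among the genes it induces in the uterus.

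The siRNAs against *YTHDF2* define the knockdown group, so their guide (antisense) strands are shown, 5′ to 3′, with the seed (bases 2 to 8, the part that first pairs with a target) in capitals.
s28148 antisense: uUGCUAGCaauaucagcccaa
s28147 antisense: uGGUCUAUaguauucaugcca
Both strands are 21 bases long, and their seeds differ. *YTHDF2* itself was at 112 and 159 FPKM in the NC libraries and at 8.07 and 4.47 FPKM in the *YTHDF2* siRNA libraries, a log2 difference of -4.25 (SE 0.43, adjusted p = 0.00037 by limma). FPKM is the number of fragments of a gene scaled to its length and to the fragments of the library, so levels can be set beside each other between genes of a library, while between libraries they also depend on how each library was scaled. Both libraries with the knockdown label thus held less *YTHDF2* than both NC libraries. In untreated 8-cell embryos, whose libraries were normalized apart, it was at 10.8, 16.7 and 12.5 FPKM, nearer to the *YTHDF2* siRNA than to the NC libraries, and no test was made across the tables.

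A few facts of the libraries bear on low genes. The untreated FPKM values step by whole fragments, which gave back fragments for 17287 of 17918 genes (96.48%, with a tolerance of 0.05 fragments), and 17800478 to 22192556 fragments lay on the genes shared by the untreated tables. The depth behind the injected libraries is unknown, since their values were rounded to 2 decimals. For these a value of 0 is called listed at 0. The injected and untreated values were normalized apart, and levels set across them have no test. The oocyte and cleavage embryo markers (9 of 10 listed) summed to 2875 to 5549 FPKM in the untreated and 2050 to 4447 FPKM in the injected libraries, with none at 0 in any library.

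Transcripts of the type I receptor were scarce in every library. *IFNAR1* lay at 0.435, 0.342 and 0.159 FPKM in the MII oocytes (79, 64 and 36 fragments), at 1.07, 0.582 and 0.544 FPKM in the 4-cell embryos, and at 0.534, 0.931 and 0.440 FPKM in the 8-cell embryos. On the deposited scale all embryo libraries were above all MII libraries, and the 4-cell and 8-cell ranges overlapped. As fragments the stages did not lie apart: 8-cell replicates 1 and 3 held 77 and 71, against 79 in MII replicate 1. Fragments on the shared genes were 21375812 and 22192556 in these embryo libraries and 17800478 in that MII library. *IFNAR2*, the chain that gives the receptor its high affinity, was read as 0, 0.0132 and 0 FPKM in the 4-cell embryos and as 0 in all 3 8-cell libraries. Its fragments were not recovered. It is not listed in the MII table. In the reference annotation (assembly ARS1.2, used for names and order only) *IFNAR1* and *IFNAR2* lie in a row with *IFNGR2* and *IL10RB* on chromosome 1, in the order *IFNGR2*, *IFNAR1*, *IL10RB*, *IFNAR2*.

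The neighbouring receptor genes had higher medians than the 0.534 FPKM of *IFNAR1*. *IFNGR2*, the second chain of the interferon gamma receptor, ranged from 0.463 to 2.43 FPKM over the 9 untreated libraries (median 1.41), and *IL10RB*, a chain shared with the type III interferon receptor, from 0 to 2.63 FPKM (median 1.16). *IFNGR1*, the ligand-binding chain of the interferon gamma receptor, was of another order, at 227, 217 and 250 FPKM in MII, 256, 240 and 247 FPKM at the 4-cell and 144, 164 and 155 FPKM at the 8-cell stage. The 8-cell libraries were the lowest of the 9 for *IFNGR1*, although the difference from MII did not reach 2-fold on the deposited scale (-0.58, adjusted p = 0.0079 by limma). It did when libraries were set to the same sum, by little, or to the same quantiles (-1.08), and was then called lower. Of the 10 interferon genes on the list 3 were matched by name, *IFNE*, *IFNK* and *IFNG*, and none of the 3 had a mean of 1 FPKM in either experiment. The other 7 were not analysed here.

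*STAT2*, the signalling factor specific to type I and type III interferons, was the one gene of the 8 above 1 FPKM in every library. It was at 7.92, 8.74 and 6.44 FPKM in the MII oocytes (1281, 1457 and 1294 fragments), at 2.26, 7.64 and 3.55 FPKM in the 4-cell embryos, and at 8.17, 2.03 and 2.61 FPKM in the 8-cell embryos. The MII libraries lie close together, while 4-cell replicate 2 and 8-cell replicate 1 sit at the MII level and the other 4 embryo libraries sit below it. In each library 61.3 to 78.7% of the genes listed were lower than *STAT2*. *STAT2* was called at neither stage on the FPKM as deposited. The log2 difference on log2(FPKM + 1) was -0.78 (SE 0.46, adjusted p = 0.235) at the 4-cell and -0.90 (SE 0.46, adjusted p = 0.158) at the 8-cell stage against MII, and -0.12 (SE 0.46, adjusted p = 0.897) between the embryo stages, all by limma with Benjamini-Hochberg adjustment. None of the 3 differences passed the test on this scale. With all 9 libraries rescaled by median ratios or by quantiles, the 8-cell difference from MII was -1.23 (adjusted p = 0.0256) and -1.25 (adjusted p = 0.0201) and was called lower. With libraries set to the same sum it was -1.26 (adjusted p = 0.0720), past the unadjusted rule only.

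On the deposited scale the *STAT2* result also changed with those 2 embryo libraries. Over all genes tested, 4-cell replicate 2 and 8-cell replicate 1 deviated from their group means together (Pearson r = 0.51 across genes, which are not independent). Without 8-cell replicate 1 the 8-cell difference from MII was -1.39 (adjusted p = 0.0168), and without 4-cell replicate 2 the 4-cell difference was -1.17 (adjusted p = 0.0993), past the unadjusted rule only. These are the embryo libraries with the most *STAT2*, so leaving them out lowers the embryo means by construction. The gene whose pattern was most like *STAT2* over the 9 untreated libraries was *SELENBP1*, a selenium-binding protein gene (Pearson r = 0.96 on log2(FPKM + 1)). Since it was picked for this likeness, its being high in both libraries is part of the choice and no further evidence: it was at 16.1 FPKM in 4-cell replicate 2 and 16.5 FPKM in 8-cell replicate 1, against 2.07 to 4.27 FPKM in the other 4 embryo libraries and 10.8 to 14.3 FPKM in MII. The study from which each untreated library was taken is not stated, so a difference between studies cannot be told apart from these values.

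*IRF9* and *IRF3* were low at all stages. *IRF9*, the DNA-binding partner of STAT2, was at 0.250, 0.0528 and 0.184 FPKM in MII (23, 5 and 21 fragments), at 0.168, 0.0416 and 0.0778 FPKM at the 4-cell stage and at 0.0411, 0 and 0 FPKM at the 8-cell stage. Every MII library was above every 8-cell library, but 0 at this depth still allows 0.0406 and 0.0368 FPKM (3 fragments, counting error only). *IRF3* was at 0.2, 0.698 and 0.142 FPKM in MII, at 0.505, 0.315 and 0.197 FPKM at the 4-cell and at 1.19, 0.440 and 0.279 FPKM at the 8-cell stage, and the ranges overlapped. Fitted without a filter on low genes, *IRF9* had a log2 difference of -0.19 (SE 0.07, adjusted p = 0.090 by limma) at the 8-cell stage against MII, and *IFNAR1* one of 0.39 (SE 0.18, adjusted p = 0.207) at the 4-cell stage. On this scale, with 1 added to each FPKM, changes of such low genes are understated.

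The 3 response genes were under 1.4 FPKM in all but 1 untreated library. *IFI6*, a small membrane protein gene and one of the strongest markers of an interferon response, was at 0.353, 0.376 and 36.7 FPKM in MII (10, 11 and 1294 fragments), at 0.126, 1.35 and 0.799 FPKM at the 4-cell stage, and at 0, 0 and 0.318 FPKM at the 8-cell stage. MII replicate 3 was 97.6-fold above the next MII library. *ISG15*, the ubiquitin-like modifier that is attached to proteins in an interferon response, read 0, 0.0845 and 0.736 FPKM in MII (0, 2 and 21 fragments), 0, 0.111 and 0 FPKM at the 4-cell and 0, 0 and 0.147 FPKM at the 8-cell stage. *MX1*, the antiviral GTPase, read 0.0390, 0.114 and 0.911 FPKM in MII (4, 12 and 116 fragments), 0.0464, 0.0373 and 0.0116 FPKM at the 4-cell and 0.725, 0.0606 and 0 FPKM at the 8-cell stage. MII replicate 3 was thus the highest of the 9 libraries for all 3 response genes, 8.02-fold above the next MII library for *MX1*, while for *STAT2*, *IRF3* and *IFNAR1* it was the lowest MII library.

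**Figure D1:**
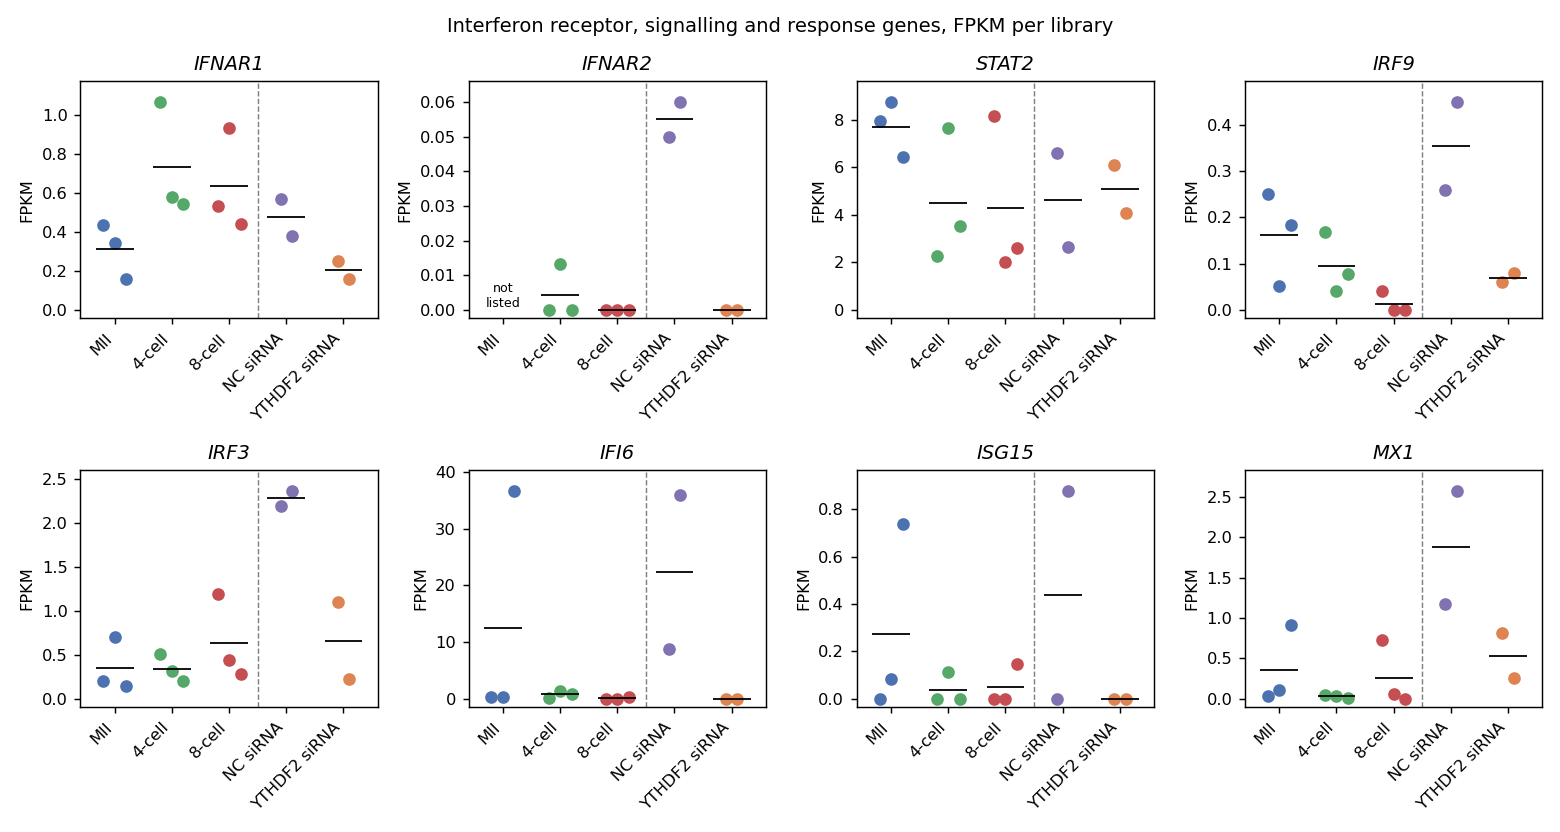
FPKM of the 8 genes in each library (1 point per library, black bar the group mean, 1 panel and FPKM axis per gene), with untreated stages left and injected 8-cell embryos right of the dashed line. *IFI6*, *ISG15* and *MX1* have 1 high MII library at 36.7, 0.736 and 0.911 FPKM, and *IFI6* is listed at 0 in both *YTHDF2* siRNA libraries beside 8.84 and 35.97 FPKM in NC.

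MII replicate 3 stood apart for more than these genes. Of 34 other response genes above 0 in MII, 20 (58.8%) were highest in replicate 3, against 26.6% of all 17102 genes above 0 in MII. Among those with a mean under 1 FPKM the share was 13 of 22 (59.1%), against 28.1% of 8036 genes. These shares are a description of 1 library and have no test. *LGALS3BP*, a secreted glycoprotein gene, reached 0.766 FPKM there. A total of 29 genes were at 1 FPKM or more in MII replicate 3 and over 10-fold above both other MII libraries, and *IFI6* was the only gene of the pathway among them, beside 1 such gene in replicate 1 and 45 in replicate 2. The gene most like *IFI6* over the 9 libraries was *IL1RL1*, the interleukin 33 receptor gene (Pearson r = 0.98 on log2(FPKM + 1)), at 17.3 FPKM in MII replicate 3 and at most 0.360 FPKM elsewhere. Both genes are high in that library alone, so the correlation rests on 1 library and says no more than that.

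Markers of cumulus and granulosa cells, which surround the oocyte, were also read in this library. The 8 listed markers of 10 summed to 59.7 FPKM in MII replicate 3 against 41.0 and 45.7 FPKM in the other MII libraries, 51.3 to 65.2 FPKM at the 4-cell and 84.3 to 126.9 FPKM at the 8-cell stage, with 1 of the 8 at 0 in MII replicate 3 against 3 and 2. *PTX3*, a matrix protein gene of the expanding cumulus, was at 2.35 FPKM in MII replicate 3 and at 0 and 0.0615 FPKM in the others, and *TNFAIP6*, another cumulus matrix gene, was at 19.3 against 1.25 and 0.782 FPKM. *FSHR*, the receptor of follicle-stimulating hormone on granulosa cells, was at 0.248 FPKM there and at 0 in both other MII libraries. In the embryos *TNFAIP6* was at 6.14, 3.67 and 1.42 FPKM at the 4-cell and at 4.47, 19.5 and 19.8 FPKM at the 8-cell stage. *PTX3* reached 0.304 FPKM and *FSHR* 0.161 FPKM in the embryos. These 3 were the markers highest in replicate 3 among the MII libraries. Another 3 were lowest there, *STAR* (29.1 against 29.5 and 34.0 FPKM), *HAS2* (8.15 against 9.79 and 9.99 FPKM) and *CYP19A1* (0.292 against 0.328 and 0.531 FPKM), while *INHBA* lay between the others and *AMH* was at 0 in all MII libraries. Leukocyte markers (6 of 8 listed) summed to 0.403 FPKM in this library, within the 0.373 to 0.663 FPKM of the MII group. The part of these cells in the *IFI6* values was not tested.

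Among the 8 genes *STAT2* and *IFI6* averaged 1 FPKM or more in the untreated libraries and entered the fit, *IFI6* through MII replicate 3 alone. A gene was called where the unadjusted p of limma was under 0.05 and the change over 2-fold, after the rule of the study, and the count with an adjusted p under 0.05 is given beside it. Neither gene was called at any stage as deposited. Since *IFI6* had to be high in MII to be fitted, and failed the filter without MII replicate 3, its fitted difference between stages restates that library and no p is given. Of the 9090 genes tested, 16.7% were called higher and 6.06% lower at the 4-cell stage against MII (20.5% in either direction by adjusted p), 19.8% and 8.14% at the 8-cell stage against MII (26.1%), and 4.55% and 4.28% at the 8-cell against the 4-cell stage (5.46%). On the deposited scale the median of all genes was 0.29 and 0.37 at the 4-cell and 8-cell stages against MII. Changes are to be read against that shift. The medians were 0.06 and 0.06 with median-ratio rescaling, -0.13 and 0.03 with the same sum, and 0.05 and 0.03 with quantiles. The depth behind the FPKM, relative to MII replicate 1, was 1 to 1.24 in MII and 0.785 to 0.887 in the embryos. Fragments on the shared genes were 17800478 to 21269186 in MII and 19714372 to 22192556 in the embryos.

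The rest of the pathway had 35 testable genes, of which 4 were higher and 0 lower at the 4-cell stage against MII. They were *JAK2*, a receptor kinase (1.65, SE 0.20, adjusted p = 0.0005), *DDX58*, the RNA sensor RIG-I (1.5, SE 0.35, adjusted p = 0.0107), *TRIM24*, a repressor of interferon signalling (1.49, SE 0.23, adjusted p = 0.0017), and *HERC5*, the ligase that attaches ISG15 (1.44, SE 0.35, adjusted p = 0.0122). *JAK2* went from 3.81, 4.47 and 3.07 FPKM in MII to 15.4, 13.8 and 12.6 FPKM, and the groups lay apart for all 4 genes. With libraries set to the same sum *HERC5* and *TRIM24* were no longer called. The share of 11.4% higher stands beside 16.7% of all genes. With median-ratio rescaling 10.3% of all genes were higher and 9.87% lower, with the same sum 6.78% and 12.7%, and with quantiles 9.66% and 9.91%, so the order of the 2 shares depends on the scaling. The median of the 35 genes was 0.33, close to the 0.29 of all genes.

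At the 8-cell stage against MII, 8 of the 35 genes were higher and 2 lower, 9 of them also by adjusted p. *B2M*, the light chain of MHC class I, rose most (2.05, SE 0.38, adjusted p = 0.0027), from 30.4, 23.1 and 35.2 FPKM in MII to 70.6, 223 and 121 FPKM. *TLR8*, an endosomal RNA sensor (1.75), *PIAS1*, an inhibitor of STAT signalling (1.47), *DDX58* (1.24), *SAMHD1*, a dNTP hydrolase that restricts viruses (1.21), and *TRIM24* (1.15) rose as well. *B2M* and *TLR8* kept the call in 15 of 15 alternatives and *PIAS1* in 14, while *DDX58*, *SAMHD1* and *TRIM24* kept it in 12, 12 and 11. *TRAF6*, a signalling adaptor (1.11, adjusted p = 0.0285), and *ADAR*, an RNA editing enzyme (1.17, adjusted p = 0.080), were also past the rule, but kept the call in 10 and 5 of 15 alternatives. Without 8-cell replicate 1 they were at 0.75 and 0.69 and not called. No rescaling of the libraries called *DDX58*, *SAMHD1*, *TRIM24*, *TRAF6* or *ADAR*. *MB21D1*, the DNA sensor cGAS, fell by 1.13 (SE 0.27, adjusted p = 0.0097), all on the log2 scale and by limma. Without 8-cell replicate 1 *MB21D1* was at -0.92 and not called, and without 8-cell replicate 3 *TRIM24* was at 0.97 and not called. The shares are 22.9% higher and 5.71% lower, beside the 19.8% and 8.14% of all genes. The split depended on the scaling: with libraries rescaled by median ratios it was 3 higher and 4 lower, to the same sum 3 and 5, and by quantiles 2 and 5, and at the 4-cell stage 4 and 3, 2 and 4, and 4 and 1. Of all genes, 12.5% were then higher and 12.7% lower at the 8-cell stage by median ratios, 11.7% and 13.2% by the same sum, and 12% and 13.6% by quantiles.

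Between the embryo stages 2 of the 35 genes were higher and 2 lower at the 8-cell stage, all also by adjusted p. *MB21D1* was at 4.65, 5.79 and 3.78 FPKM in MII, 5.45, 5.74 and 8.1 FPKM at the 4-cell and 0.950, 2.17 and 1.83 FPKM at the 8-cell stage. All 8-cell libraries were below the other 6, and from the 4-cell to the 8-cell stage it fell by 1.5 (SE 0.27, adjusted p = 0.0130), while *B2M* (1.91, SE 0.38, adjusted p = 0.0194) and *TLR8* (1.02, SE 0.21, adjusted p = 0.0205) rose. The *TLR8* call was lost with median-ratio rescaling (0.94), and when either 4-cell replicate 1 (0.87) or 8-cell replicate 3 (0.93) was left out. The 5.71% in each direction stand beside 4.55% and 4.28% of all genes.

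**Figure D2:**
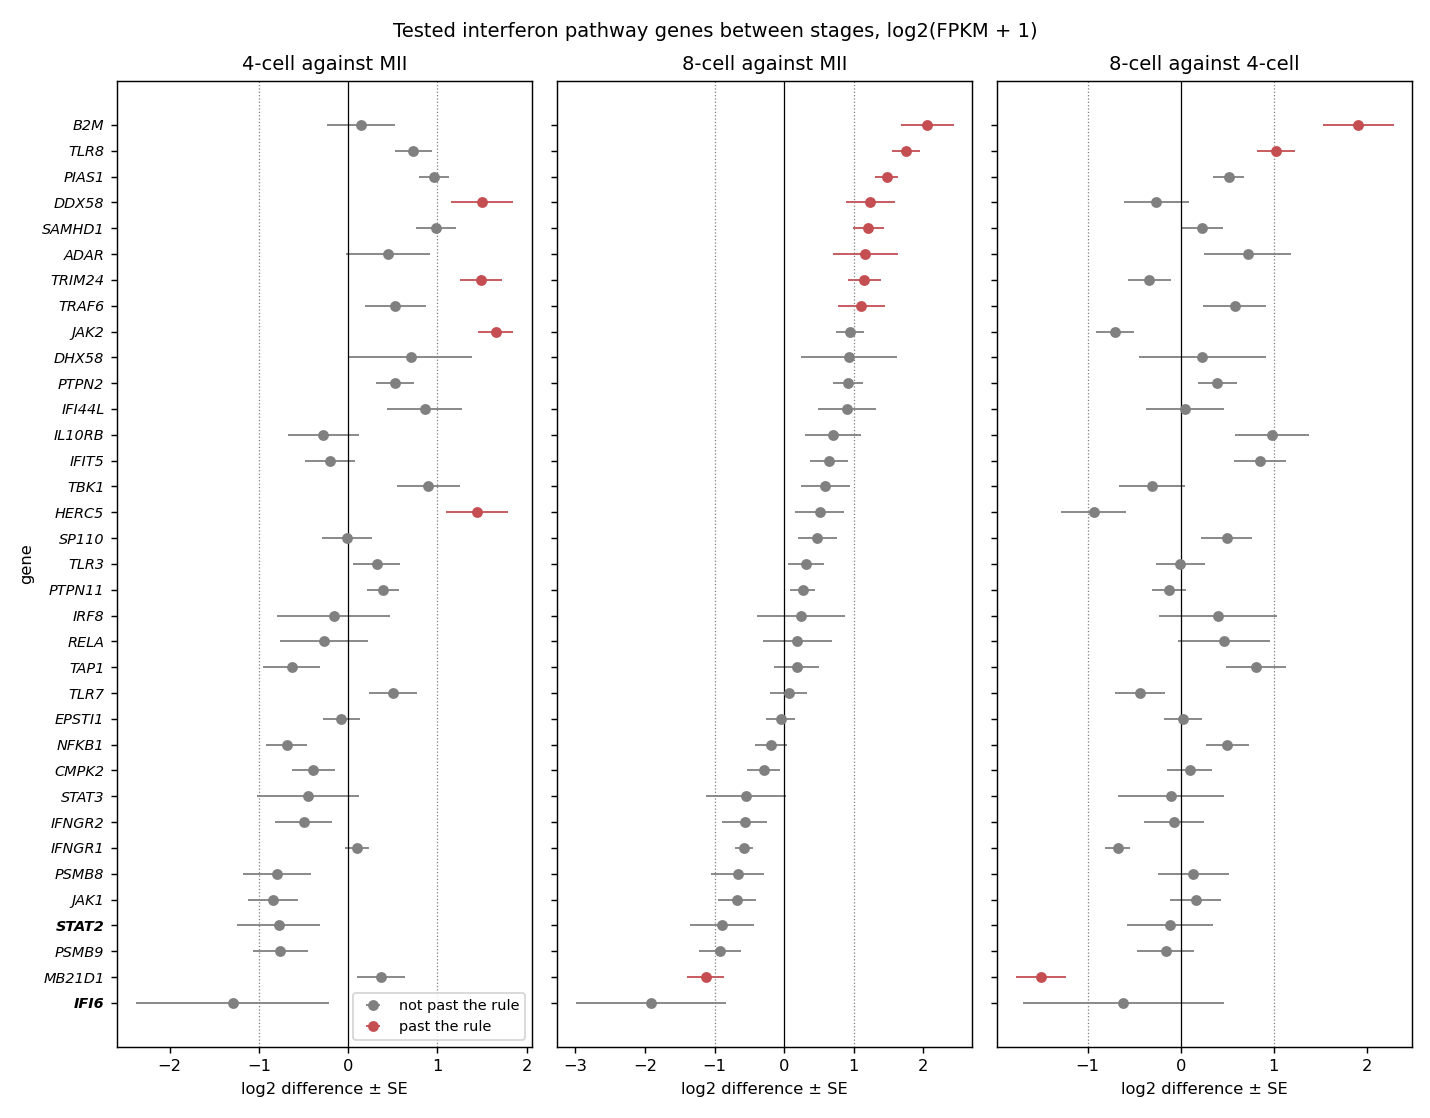
Log2 difference of log2(FPKM + 1) with its SE (horizontal axis) for 35 tested genes (vertical axis, *STAT2* and *IFI6* in bold), for 4-cell against MII, 8-cell against MII and 8-cell against 4-cell. Red points passed an unadjusted p of 0.05 and 2-fold (dotted lines), and *IFI6*, which entered the fit through MII replicate 3, has the widest SE, 1.08.

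In the injected 8-cell embryos the comparison of *YTHDF2* siRNA with NC siRNA is described without a test for the 8 genes, since *IFI6* was chosen with its values in this contrast known. *IFI6* was at 8.84 and 35.97 FPKM in the NC libraries, above 81.4 and 92.5% of the genes listed, and was listed at 0 in both *YTHDF2* siRNA libraries. *MX1* was at 1.17 and 2.58 FPKM in NC and at 0.81 and 0.26 FPKM after *YTHDF2* siRNA. *ISG15* was at 0 and 0.88 FPKM in NC and listed at 0 in both knockdown libraries. NC replicate 2 was the higher NC library for all 3 response genes, and both knockdown libraries were below both NC libraries for *IFI6* and *MX1*.

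Of the receptor and signalling genes, 4 of 5 were lower in both knockdown libraries. *IRF3* was at 2.19 and 2.37 FPKM in NC and at 1.1 and 0.22 FPKM after *YTHDF2* siRNA, *IRF9* at 0.26 and 0.45 against 0.06 and 0.08 FPKM, *IFNAR1* at 0.57 and 0.38 against 0.25 and 0.16 FPKM, and *IFNAR2* at 0.05 and 0.06 FPKM against 0 in both. For these 4 genes the groups did not overlap, at values near 0 for *IFNAR2*. Of all 20357 genes above 0, 25.8% were below in this way, and of the 9353 with a mean under 1 FPKM 20.0%. *STAT2* was at 6.59 and 2.64 FPKM in NC and at 6.09 and 4.06 FPKM after *YTHDF2* siRNA, so its ranges overlapped. As log2 differences of the means of log2(FPKM + 1), *YTHDF2* siRNA minus NC, the values were -4.25 for *IFI6*, -1.03 for *IRF3*, -0.88 for *MX1*, -0.46 for *ISG15*, -0.34 for *IRF9*, -0.29 for *IFNAR1*, -0.08 for *IFNAR2* and 0.19 for *STAT2*, with a median of -0.40. These values depend on the 1 FPKM added, most where a library is at 0. With 0.1 FPKM added they were -7.49 for *IFI6*, -1.94 for *IRF3*, -1.69 for *MX1*, -1.65 for *ISG15*, -1.39 for *IRF9*, -0.91 for *IFNAR1*, -0.63 for *IFNAR2* and 0.25 for *STAT2*. The values for *IFI6*, *ISG15* and *IFNAR2*, against 0 in both knockdown libraries, are therefore no estimate of a fold. Without NC replicate 2 *ISG15* was at 0 in the 3 libraries that remain. In bulk libraries less RNA per cell cannot be told apart from fewer cells that hold the RNA.

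In all, both *YTHDF2* siRNA libraries were below both NC libraries for 6 of the 8 genes and above them for none. Over all 20357 genes above 0 in these libraries 25.8% were below and 22.8% above. *IFI6* was part of how the genes were chosen, and the values of the other 7 were known from earlier results, so the count is a description. Leukocyte markers (7 of 8 listed) summed to 8.78 and 11.5 FPKM in NC and to 5.26 and 2.41 FPKM after *YTHDF2* siRNA, with 0 of the 7 at 0 in NC and 1 in each knockdown library, and trophectoderm markers (6) to 75.0 and 100.6 against 93.9 and 43.1 FPKM. Cumulus and granulosa markers (9 of 10 listed) were at 37.1 and 35.3 against 69.0 and 66.8 FPKM, the opposite direction. Oocyte and cleavage embryo markers (9 of 10 listed) were also higher after *YTHDF2* siRNA, at 3050 and 2050 FPKM in NC against 4249 and 4447 FPKM. The part of these cell types in the counts was not tested.

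The response genes outside the 8 were read in the same way. Of 35 listed, 17 (48.6%) were below both NC libraries in both *YTHDF2* siRNA libraries and 4 above. Of all genes 25.8% were below and 22.8% above. The list was chosen with earlier results of these data known, so the count is a description. Among the 24 response genes with a mean under 1 FPKM 13 (54.2%) were below, against 20.0% of the 9353 genes as low. Those listed at 0 in both knockdown libraries and above 0 in both NC libraries were *MX2*, the paralog and neighbour of *MX1* (0.38 and 0.68 FPKM in NC), *IFI35* (0.44 and 0.6 FPKM), *RSAD2*, the antiviral enzyme viperin (0.26 and 0.12 FPKM), *DTX3L*, a ubiquitin ligase (0.17 and 0.1 FPKM), and *LGALS3BP* (0.11 and 1.24 FPKM). These are low values at unknown depth, and with 2 libraries in a group they have no test of their own. Among the other 12 were *IFI44*, *IFI44L*, *IFIT5*, *HERC6*, *UBA7*, *UBE2L6*, *PARP14*, *CMPK2*, *PML*, *B2M* and *PSMB8*. Among the 11 response genes with a mean of 1 FPKM or more, *IFI44L*, *IFIT5*, *HERC6* and *B2M* were below. There *EPSTI1*, *SP110* and *TAP1* were above, and the ranges of the rest overlapped. *IFI44L* went from 1.14 and 2.71 to 0.78 and 0.32 FPKM and *IFIT5* from 4.09 and 3.84 to 1.69 and 2.34 FPKM. In the other direction *TAP1* went from 0.95 and 0.28 to 1.17 and 1.62 FPKM.

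**Figure D3:**
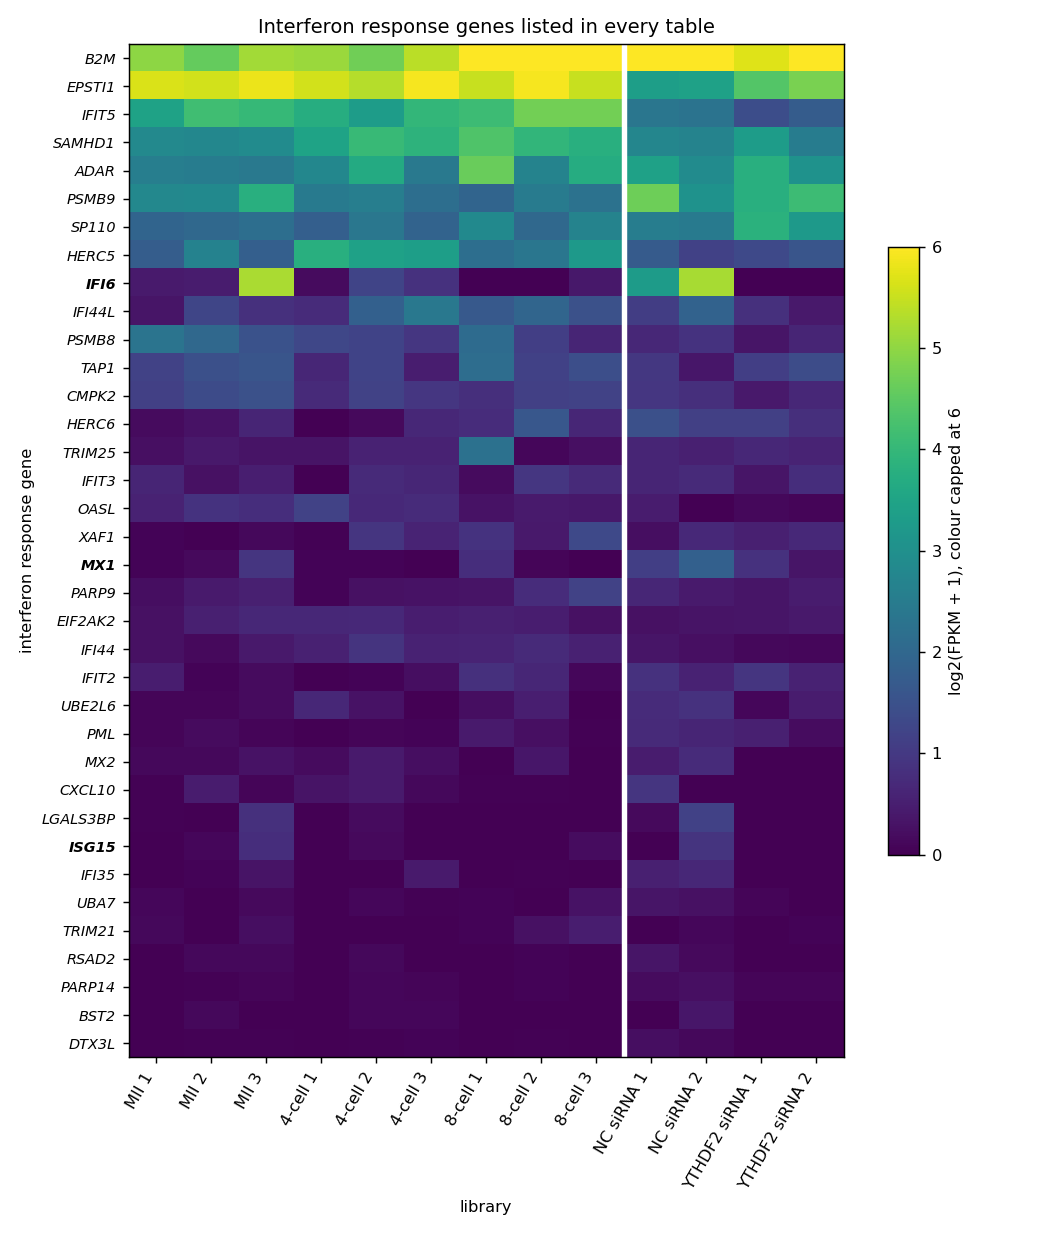
Log2(FPKM + 1), as colour capped at 6, of 36 interferon response genes listed in every table (rows, ordered by mean, the 3 described genes in bold) in the 13 libraries (columns, white line between untreated and injected). *IFI6* is bright in MII replicate 3 and in both NC libraries, and *MX2*, *IFI35*, *LGALS3BP* and *ISG15* are at 0 in both *YTHDF2* siRNA libraries.

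The other roles of the list gave other counts. Of the transcription factors outside the 8, 0 of 11 were below NC in both knockdown libraries and 5 were above, where *IRF3* and *IRF9* of the 8 were below. Among the sensors and adaptors 2 of 18 were below and 6 above, and of the 4 receptor genes outside the 8, 3 were below (*IFNGR2*, *IFNLR1* and *IL10RB*) and *IFNGR1* was above. Over the whole list 24 of 81 (29.6%) were below and 21 above, near the 25.8% and 22.8% of all genes. The difference between the roles was not tested.

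By the limma rule, 33 pathway genes outside the 8 could be tested between *YTHDF2* siRNA and NC siRNA, and 6 were called higher and 2 lower, where 9.48% and 15.3% of all 11004 genes were. Only *B2M* was also called by adjusted p, as 7.98% of all genes were. *B2M* was at 241 and 181 FPKM in NC and at 51.1 and 106 FPKM after *YTHDF2* siRNA (-1.49, SE 0.43, adjusted p = 0.0472). Its adjusted p by limma was above 0.05 with a pseudocount of 0.1, without the filter, with median-ratio or quantile scaling and with the replicate block, reaching 0.199. With 1 library left out its difference was -2.01 to -0.97. *TBK1*, the kinase that activates IRF3, went from 19.8 and 35.3 to 12.5 and 8.65 FPKM (-1.27, SE 0.44, adjusted p = 0.0848). Among those called higher were *EPSTI1*, an interferon response gene (1.19), *IRF8*, a transcription factor known from myeloid cells (1.19), *JAK1* (1.1), *SP110*, a nuclear body gene (1.03), and *DHX58*, a regulator of RIG-I (1.01), with adjusted p between 0.0844 and 0.134 by limma. *EPSTI1* went from 9.3 and 9.78 to 19.98 and 26.6 FPKM and *IRF8* from 21.7 and 20.8 to 36.9 and 66.7 FPKM. Leaving out 1 of the 4 libraries leaves a group of 1 library, so only the differences are given for that. They were -1.67 to -0.86 for *TBK1*, 0.99 to 1.39 for *EPSTI1* and 0.77 to 1.61 for *IRF8*. For *JAK1* they were 1.07 to 1.14, for *SP110* 0.73 to 1.33 and for *DHX58* 0.80 to 1.23.

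**Figure D4:**
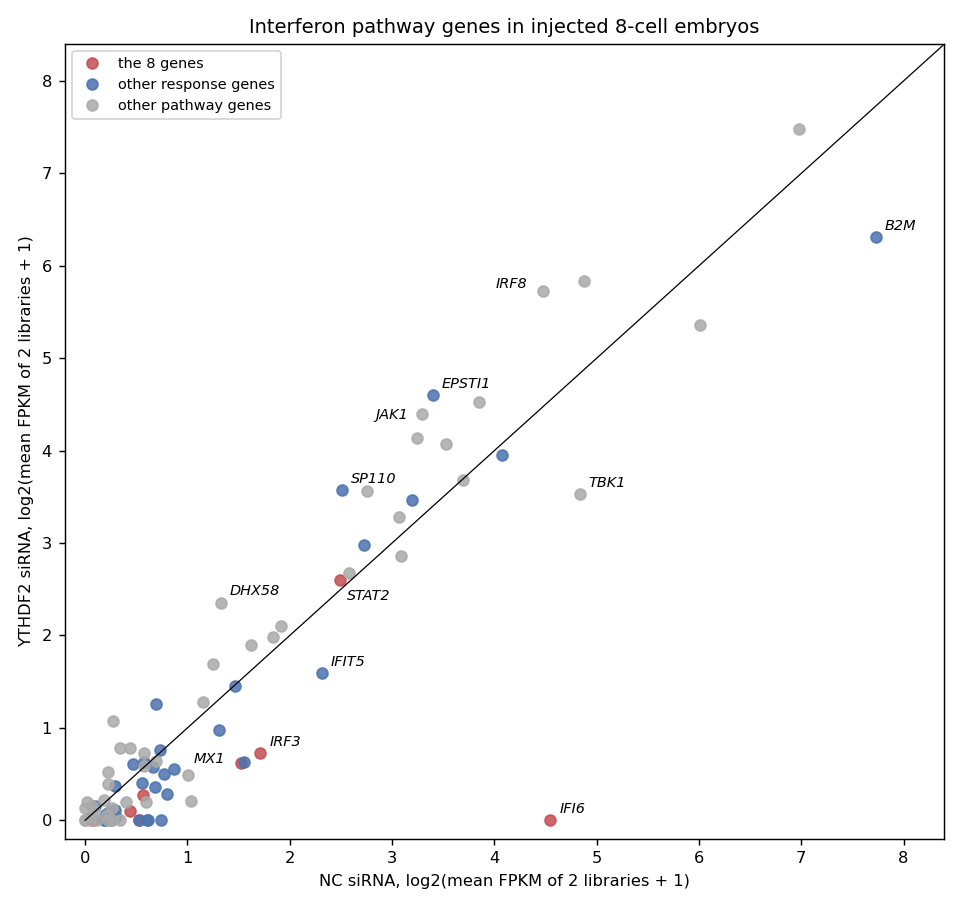
Log2 of the mean FPKM plus 1 of the 2 NC siRNA libraries (horizontal) against that of the 2 *YTHDF2* siRNA libraries (vertical) for the 8 genes (red), other response genes (blue) and other pathway genes (grey), with the line of equal values. *IFI6* lies at 0 on the vertical axis with a mean of 22.4 FPKM in NC, *B2M* and *TBK1* lie below the line, and *STAT2* lies close to it with means of 4.62 and 5.08 FPKM.

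The NC libraries were also set beside the untreated 8-cell embryos. The NC mean was above the untreated 8-cell mean for 7 of the 8 genes, *IFNAR1* being the exception, beside 37 of 83 other pathway genes (44.6%) and 10298 of 19357 genes (53.2%). Both NC libraries were above all 3 untreated libraries for 5 of 8 (62.5%). This held for 19 of 83 other pathway genes (22.9%) and for 6148 of 19357 genes (31.8%). *IFI6*, at 8.84 and 35.97 FPKM in NC, was at 0, 0 and 0.318 FPKM in untreated 8-cell embryos, and after *YTHDF2* siRNA it was listed at 0 as in 2 of the 3 untreated libraries. *IRF3*, at 2.19 and 2.37 FPKM in NC, was at 0.279 to 1.19 FPKM in the untreated and at 0.22 to 1.1 FPKM in the *YTHDF2* siRNA libraries. Injection, culture, library batch and normalization all go with this contrast and cannot be told apart, and no test was made.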

How the data were processed

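Per the study's methods, HISAT2 placed the reads on the goat assembly ARS1, reads with more than 1 position were dropped, HTSeq counted the rest per gene, and the authors deposited FPKM values for each library in 5 tables. The strand setting of the counting is not given in the sources used here. Gene names were used as listed. Of 27161 names 99.73% equal a symbol of the reference table (assembly ARS1.2), no coordinates were used, and repeated names were dropped (22 in the MII, 43 in the 4-cell and 8-cell and 8 in the injected tables).

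Values as log2(FPKM + 1) of genes averaging 1 FPKM or more entered limma 3.58.1 (lmFit, eBayes with a trend) in R 4.3.3. The 9 untreated libraries shared 1 model and the 4 injected libraries had their own. Both were run on simulated data, for 8-cell against MII and for the knockdown. Known changes were planted only in genes well above the 1 FPKM filter, so the simulation does not cover lower genes. Adjusted p-values are Benjamini-Hochberg over all genes of a fit. No count test was run, on the recovered fragments either. The 8 genes, the pathway list and the marker lists were chosen with earlier results of these data known. Named are the 8 genes, up to 12 pathway genes past the call rule per comparison, and for each of the 8 averaging 1 FPKM or more in untreated libraries the 1 gene most like it. Genes named for lying apart, for MII replicate 3 or for their level were chosen after their values were seen. A few genes are in the counts but are not reported here by name or shown in figures. Replicate numbers come from the titles. Same-numbered libraries did not deviate together (r from -0.508 to 0.201), so libraries were not paired. Python 3.11.15 with numpy 2.4.6, pandas 2.3.3 and matplotlib 3.10.9 did the rest.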

Additional observations from a re-analysis of the deposited data

How the results depend on the processing

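With 2 or 3 libraries a group, 1 library can decide a call, 6 of the 8 genes lie too low for the filtered stage tests, and under 3 fragments a gene cannot be told from 0. None of *STAT2* and *IFI6* was called between stages by limma as described above, at adjusted or unadjusted p. At the 4-cell stage against MII 1 (*STAT2*, lower) was called with median-ratio rescaling, with rescaling to the same sum and without both 4-cell replicate 2 and 8-cell replicate 1 (the 2 embryo libraries with the most *STAT2*, left out after its values were seen, so no independent support), and 0 to 1 with 1 library left out. At the 8-cell stage against MII 1 was called, lower, with a pseudocount of 0.1 (*IFI6*, which entered the fit through MII replicate 3 alone), with either rescaling, with quantile normalization and without both those libraries (*STAT2*, by adjusted p too except with the same sum), and 0 to 1 with 1 library left out (*IFI6* without MII replicate 1 or 2, *STAT2* without 8-cell replicate 1). The small 8-cell against 4-cell difference of *STAT2* turned to 0.27, 0.19 and 0.06 without 4-cell replicate 2, 8-cell replicate 2 or 8-cell replicate 3 (range -0.61 to 0.27). Its knockdown difference turned to -0.34 without NC replicate 2 and -0.05 without *YTHDF2* siRNA replicate 1 (range -0.34 to 0.72). The median difference of the 8 genes in the knockdown was -1.52 with a pseudocount of 0.1 and -0.67 to -0.36 with 1 library left out. Of the pathway genes, 7 were called at the 4-cell stage with median-ratio rescaling (4 to 8 with 1 library left out). Between embryo stages 7 were called with a pseudocount of 0.1 (3 to 7 with 1 library left out). In the knockdown, 1 library left out leaves a group of 1, so no count is given for it. The cause was not tested. With the replicate number as a block, 4, 9 and 4 pathway genes were called between stages and 8 in the knockdown, 0 of these 8 by adjusted p, and 5 with the numbers crossed, a pairing chosen after seeing the data. The block changed no call of *STAT2* and *IFI6* between stages. Filters and blocks do not enter the plain knockdown differences of the 8 genes.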

Other observations

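Some pathway genes lay in separate ranges in the untreated and the injected libraries, which were normalized apart, so that stage, injection, batch and normalization cannot be told apart and no test was made. *IRF1*, a transcription factor of the interferon gamma response, was at 0.0777 to 1.66 FPKM in the 9 untreated and at 5.41 to 9.34 FPKM in the 4 injected libraries. The feedback inhibitors *SOCS1* and *SOCS3* were at 0.111 to 3.58 and 0.0373 to 0.780 FPKM in the untreated and at 4.69 to 19.2 and 1.14 to 2.75 FPKM in the injected libraries. *TBK1* was at 0.819 to 4.63 against 8.65 to 35.3 FPKM. The other direction was seen for *IFNGR1* (144 to 256 against 23.9 to 72.0 FPKM), *IFIT5*, an RNA-binding response gene (8.95 to 25.6 against 1.69 to 4.09 FPKM), and *EPSTI1* (39.3 to 59.9 against 9.3 to 26.6 FPKM).

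Within the untreated 8-cell group, replicate 1 was the highest for *IRF8*, at 329 FPKM against 44.0 and 51.0 FPKM in the others and 52.4 to 87.8 FPKM in the 4-cell and 75.5 to 78.1 FPKM in the MII libraries. It was also the highest 8-cell library for *ADAR* (23.7 against 5.40 and 12.2 FPKM), *TRAF6* (39.3 against 16.4 and 19.9 FPKM), *STAT2* and *MX1*.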
